A study of Mus musculus with 60 samples.

Results

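The lung arrays taken 96 h after inhalation of SPIO nanoparticles (superparamagnetic iron oxide) were compared with the sham controls of the same time. These were 10 of the 60 arrays of the series, 5 from SPIO exposed mice and 5 from sham controls, chosen by the titles of their columns, with 1 array per mouse. All 10 animals were male Balb/c mice held for 4 h in a humidified atmosphere of helium, oxygen and HEPA-filtered air, which carried the SPIO aerosol for the exposed mice and no particles for the sham controls. Mice due for sacrifice at this time were also those whose breathing had been followed by plethysmography around the exposure, in both arms. They were killed with sodium pentobarbital, and RNA came from the right diaphragmatic lobe, a piece of whole tissue that holds epithelium, vessels, airways and leukocytes together. The labels name biological replicates, but exposure day, time of day at sacrifice and hybridization batch were not given in the sources used here. Age was not given either.

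Iron oxide particles that settle in the alveoli are taken up mainly by alveolar macrophages, which carry them into lysosomes, and neutrophils and monocytes can enter the lung from the blood in response to inhaled particles. Lymphocytes and plasma cells usually arrive later than neutrophils. Heat shock proteins are chaperones that refold damaged proteins in the cytosol, and immediate early genes encode transcription factors that cells switch on within minutes of a stimulus.

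Expression is given as the log2 value that the authors made by RMA, so a difference of 1 is a 2-fold change, and where a gene had several probe sets on the array the brightest of them, by its average across the series, stood for it. The arrays at 96 h had medians of 5.56 to 5.64 and correlated with one another at 0.9785 to 0.9945. Alveolar type 2 markers were high and alike in both arms: the 11 genes measured averaged 13.06 in sham and 13.06 in exposed mice, and the groups overlapped. Other lists varied widely between mice within each arm. Club and secretory airway markers ran from 8.10 to 10.67 in sham and from 8.78 to 11.01 in exposed mice. Liver and plasma protein genes ran from 4.89 to 8.41 in sham and from 5.10 to 7.91 in exposed mice. Heart muscle RNA differed between lobes, with a mean over 20 cardiac genes from 5.30 to 8.83 in sham and from 6.61 to 9.15 in exposed mice, and 0 of those genes passed limma (0 at an unadjusted p under 0.05). Exposed mouse 3 had the lowest mean of the exposed mice over the genes that fell (7.73). Sham mouse 2 had the lowest mean of the sham mice over the heat shock genes (10.38). It had the highest over the immediate early (9.52) and neutrophil genes (8.51). The mean over all 18193 genes lay between 6.93 and 6.96 in sham and between 6.98 and 7.03 in exposed mice, without overlap, and the median change of all genes was 0.06, with a positive difference in 12552 of them. In whole tissue, fewer cells of a type and less RNA per cell cannot be told apart.

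At 96 h the lungs of exposed mice had a small group of genes with higher expression and a larger group with lower expression and larger changes. Of 18193 genes, 256 passed limma at a Benjamini-Hochberg adjusted p under 0.05 (1.41%). Of these 95 were higher (0.522%) and 161 lower (0.885%) in exposed mice. At an unadjusted p under 0.05 the order was turned, with 1858 genes higher (10.2%) and 749 lower (4.12%). The genes that rose did so by a median of 0.42 and at most 0.86, and 15 of them reached 1.5-fold. The genes that fell did so by a median of 0.66 on the log2 scale, and 97 reached 1.5-fold and 26 reached 2-fold. The 5 exposed and 5 sham mice did not overlap in 748 of all genes tested (4.11%). Of these 748, 190 were among the 256 that passed (1.04% of all genes tested). The 256 were chosen by the difference between the same mice, so their separation is largely fixed by the choice. Without exposed mouse 3 the count of genes that passed was 81 (23 higher, 58 lower), and 79 of these were among the 256. Centring each array on its median moved the split to 39 higher and 312 lower, and a second quantile normalization moved it to 74 higher and 263 lower.

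**Figure D1:**
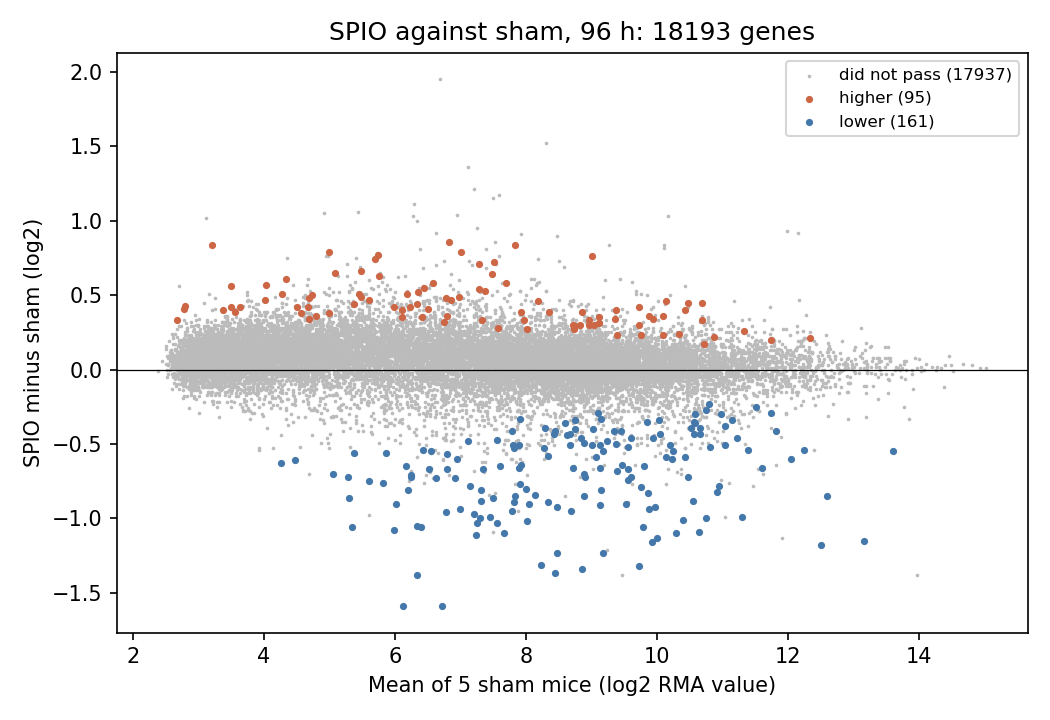
Change at 96 h (SPIO minus sham, log2) of each of 18193 genes against its mean in the 5 sham mice (log2 RMA value). Orange points are the 95 genes that were higher and blue points the 161 that were lower at an adjusted p under 0.05; grey points did not pass, and the blue points reach further from 0 than the orange ones.

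Ly86, Tlr1 and Fcgr4, which encode receptor proteins of leukocytes, were among the genes that rose. Ly86, which encodes MD-1, the partner of the B cell and macrophage receptor CD180, was measured at 9.19, 8.68, 8.78, 9.09 and 9.26 in the sham mice and at 9.92, 9.93, 9.71, 9.48 and 9.76 in the exposed mice. All exposed mice were above all sham mice, the difference was 0.76 ± 0.17 (SE, n = 5 per group), and Ly86 passed limma with an adjusted p of 0.0099. Tlr1, a receptor for bacterial lipopeptides that works with TLR2, had 5.89, 5.31, 5.61, 6.00 and 5.86 in sham and 6.67, 6.44, 6.65, 6.51 and 6.23 in exposed mice. The groups did not overlap, and Tlr1 was 1.70-fold higher (limma adjusted p = 0.029). Fcgr4, an activating receptor for IgG on monocytes, macrophages and neutrophils, had 6.83, 7.40, 7.07, 6.47 and 7.28 in sham and 8.03, 7.83, 7.72, 7.83 and 7.57 in exposed mice, again without overlap, a 1.73-fold difference (limma adjusted p = 0.029). Without exposed mouse 3, Tlr1 and Fcgr4 no longer passed, at changes of 0.73 and 0.81.

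Gpnmb, a glycoprotein of macrophages and osteoclasts, was 7.49, 7.46, 7.68, 7.34 and 7.42 in sham and 8.06, 8.06, 8.06, 8.20 and 8.24 in exposed mice. The exposed mice lay close together and above all sham mice, by 0.64 ± 0.13 (limma adjusted p = 0.0038). Ccl24, the eosinophil attractant eotaxin-2, was 5.45, 5.60, 5.62, 5.29 and 5.46 in sham and 6.18, 6.47, 5.73, 6.16 and 6.18 in exposed mice, without overlap and 1.58-fold higher (limma adjusted p = 0.0021). Itgb7, an integrin chain that guides lymphocytes to mucosa, was 7.89, 7.82, 7.32, 7.66 and 7.75 in sham and between 8.22 and 8.35 in all exposed mice, 1.49-fold higher (limma adjusted p = 0.0067). P2rx7, the ATP-gated channel upstream of the NLRP3 inflammasome, rose by 0.49 ± 0.12 (limma adjusted p = 0.016), but did not pass without exposed mouse 3 (0.39) or without sham mouse 2 (0.45). It was 1 of 2 genes that were higher at all 6 times, the other being Cbx6, a Polycomb protein (0.34 at 96 h). For each of these genes with no overlap the two-sided exact permutation p was 0.0079, the smallest that 252 divisions of 10 mice can give.

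The largest rises were those of Lrtm2 (0.86, limma adjusted p = 0.0044), a leucine-rich repeat membrane protein, and Slc14a1 (0.84, limma adjusted p = 0.00036), a urea transporter. In Lrtm2 the groups overlapped, with 6.45 to 7.50 in sham and 7.35 to 7.88 in exposed mice. Slc14a1 was low on the array, at 3.36, 3.05, 3.19, 3.25 and 3.21 in sham and 4.27, 4.60, 4.20, 3.48 and 3.73 in exposed mice. Next in size were H2-DMb2 (0.84), a chaperone of MHC class II peptide loading, Zc3h12d (0.79), an RNA-binding protein of lymphocytes, Ptpru (0.71), a receptor phosphatase, and Rnase6 (0.65), a secreted antimicrobial ribonuclease. Ly9, a SLAM family receptor, rose by 0.63, the mitotic kinase Melk by 0.61, leupaxin (Lpxn) by 0.58, the collagen receptor Oscar by 0.57 and the metalloprotease Adamts8 by 0.54. The noncoding RNAs Pantr1 (0.56) and Tnfsf13os (0.55) complete the 20 largest rises together with Ly86, Tlr1, Fcgr4, Gpnmb, Ccl24, Itgb7 and the antibody chaperone Mzb1. Of the 20, the 6 genes Lrtm2, Slc14a1, Ly86, Ccl24, Gpnmb and Itgb7 passed in each of the 10 fits that left out 1 mouse of 96 h. The other 14 did not pass without exposed mouse 3, where H2-DMb2 was 0.70, Zc3h12d 0.70, Ptpru 0.63 and Rnase6 0.63. Without sham mouse 2 the genes H2-DMb2, Zc3h12d, Ptpru, Rnase6, Tlr1, Ly9, Melk, Lpxn, Oscar, Adamts8 and Pantr1 did not pass either. Oscar passed in 0 of the 10 fits. With the 96 h arrays fitted alone, Lrtm2 and Slc14a1 did not pass (limma adjusted p = 0.067 and 0.064), nor did H2-DMb2, Zc3h12d and Fcgr4. In that fit 16 of the 95 genes that rose passed, Ly86 and Tlr1 among them.

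**Figure D2:**
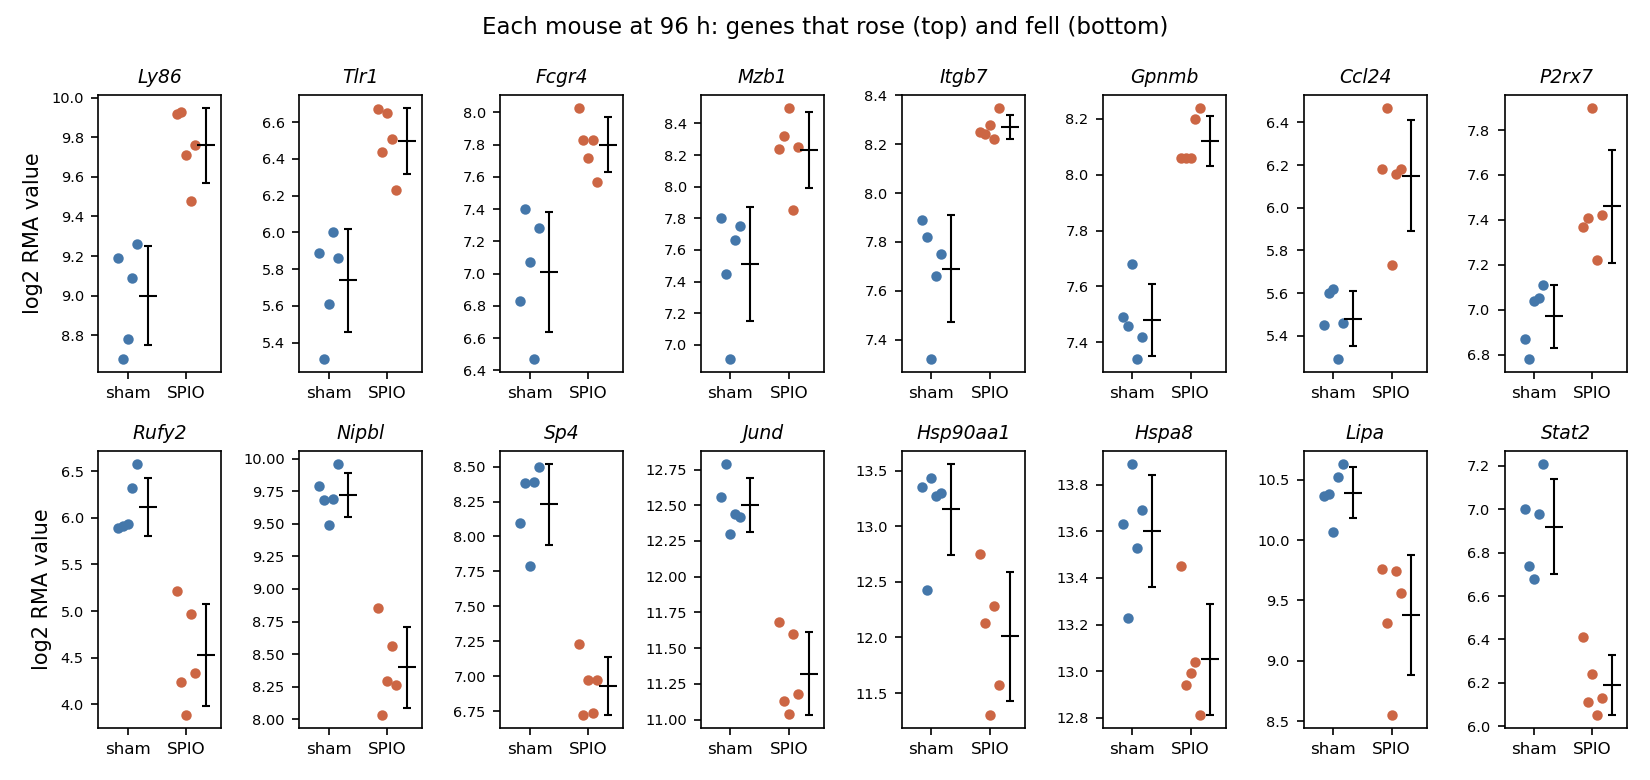
Log2 RMA value of 16 genes in each of the 5 sham (blue) and 5 SPIO exposed mice (orange) at 96 h; black marks are the mean and SD of each group, and each panel has its own axis. In the top line all exposed mice lie above all sham mice, and in the bottom line they lie below them except in Hsp90aa1 and Hspa8, where 1 sham mouse lies among the exposed mice.

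Markers of B cells and plasma cells had the highest median change of the lists described, 0.59 over 19 genes measured against 0.06 over all genes. This was not particular to 96 h: the median of the list was 0.54, -0.12, 0.60, 0.02 and 0.28 at 0, 6, 24, 48 and 168 h. Only Mzb1 of these 19 passed, while 11 of 19 were higher at an unadjusted p under 0.05 and 0 were lower. Mzb1, an endoplasmic reticulum protein needed for antibody secretion, was 7.80, 7.45, 6.91, 7.66 and 7.75 in sham and 8.24, 8.32, 8.50, 7.85 and 8.25 in exposed mice, without overlap (0.72 ± 0.17, limma adjusted p = 0.018; 0.65 and not past the threshold without exposed mouse 3). Cd79b, a signalling chain of the B cell receptor, differed by 0.91 (limma adjusted p = 0.11), the inhibitory receptor Cd22 by 0.61 (limma adjusted p = 0.084) and the kinase Blk by 0.63 (limma adjusted p = 0.053). Averaged over the list, sham mice had 7.49, 7.18, 6.71, 7.25 and 7.47 and exposed mice 7.76, 7.77, 8.05, 7.49 and 7.75. The exposed mice lay at or above the highest sham mouse. Thymus and lymph node markers, low on the array, were also higher, with 4.55 to 4.63 in sham and 4.67 to 4.90 in exposed mice over 11 genes, without overlap. Of these 10 had a positive difference, and Rag1, the recombinase of developing lymphocytes, rose by 0.41 from a low level (limma adjusted p = 0.0077; 0.33 and not past the threshold without exposed mouse 5). The exposed mice did not rank alike in both lists. Exposed mouse 3, highest in the B cell list, had 4.70 in the thymus list, and exposed mouse 4, lowest in the B cell list, had 4.86. The thymus list had a median change of 0.17 at 96 h. At 0, 6, 24, 48 and 168 h it was 0.21, 0.04, -0.08, -0.11 and 0.11. The part of lymphoid tissue in the B cell values was not tested.

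Neutrophil markers had a median change of 0.38 over 18 genes, with 0 passing limma and 5 higher at an unadjusted p under 0.05. The calprotectin chain S100a8 was 11.19, 12.99, 12.02, 11.43 and 12.29 in sham and 13.20, 12.80, 12.82, 13.31 and 12.45 in exposed mice, a difference of 0.93 (95% confidence interval 0.16 to 1.71, limma adjusted p = 0.23). Sham mouse 2 lay among the exposed mice there, as it did in Mmp9, the neutrophil gelatinase (8.21, against 6.97 to 7.51 in the other sham mice). Without sham mouse 2 the median change of the neutrophil list was 0.58. Monocyte markers had a median of 0.21 (0 of 17 passed, 4 higher at an unadjusted p under 0.05), macrophage markers 0.15 (1 of 26, Gpnmb) and T and NK cell markers 0.24 (0 of 24 passed, 5 higher at an unadjusted p under 0.05). The macrophage scavenger receptor Marco differed by 0.59 (limma adjusted p = 0.27).

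Genes of leukocyte adhesion and migration had a median of 0.26, with Itgb7 the single member of 27 that passed. Innate immune receptors had a median of 0.15, and Tlr1 and Fcgr4 of 26 passed. Cell cycle genes had a median of 0.29 over 36 genes, where 0 passed limma, 13 were higher and 0 lower at an unadjusted p under 0.05, and the median was 0.18 without sham mouse 2. Among them the thymidine kinase Tk1 differed by 0.55 (limma adjusted p = 0.083), the replication licensing factor Cdc6 by 0.61 (limma adjusted p = 0.084), Ccne1 by 0.38 and the spindle checkpoint kinase Bub1b by 0.41. Ccne1 and Bub1b did not overlap between the groups, with 5.59 to 5.65 in sham and 5.75 to 6.16 in exposed mice for Ccne1. The acute phase gene Saa3 had a difference of 1.52, larger than that of any gene that rose, but ranged from 7.25 to 8.97 in sham and from 8.92 to 11.27 in exposed mice (limma adjusted p = 0.062).

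**Figure D3:**
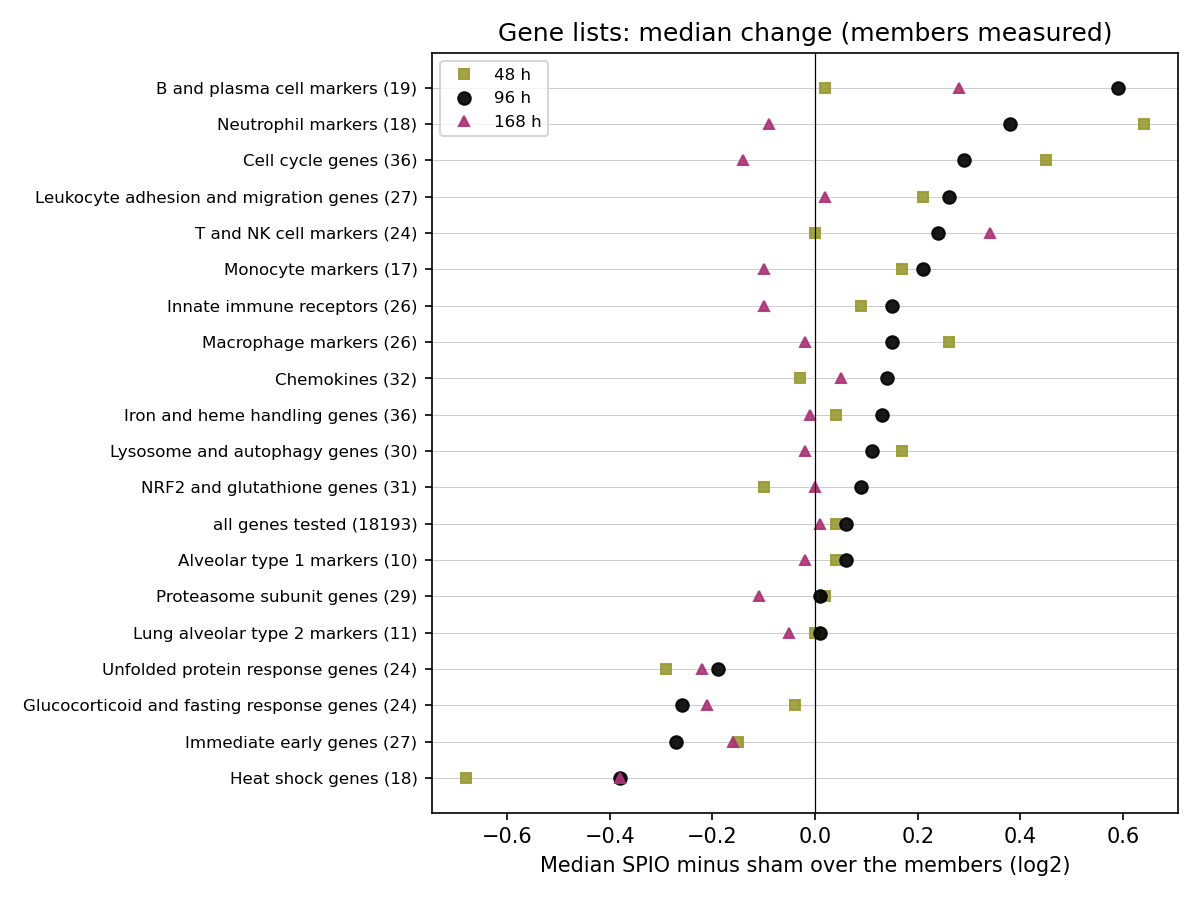
Median SPIO minus sham difference (log2) over the measured members of 19 gene lists and over all 18193 genes, at 48 h (squares), 96 h (circles) and 168 h (triangles), with the number of members in parentheses. At 96 h the B and plasma cell list lies furthest right at 0.59 and the heat shock list furthest left at -0.38.

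The genes that fell furthest were not members of the immune lists. Rufy2, a RUN and FYVE domain protein of endosomes, was 5.89, 5.91, 5.93, 6.32 and 6.58 in sham and 5.22, 4.24, 3.88, 4.97 and 4.33 in exposed mice. The groups were far apart, and Rufy2 was 3.02-fold lower (-1.59 ± 0.20, limma adjusted p = 1.1e-06). Lncpint, a long noncoding RNA under p53 control, was also 3.02-fold lower, but its groups overlapped, since exposed mouse 3 at 6.27 was above sham mouse 3 at 6.24. Nipbl, which loads cohesin onto chromosomes, was 9.79, 9.68, 9.49, 9.69 and 9.96 in sham and 8.85, 8.03, 8.29, 8.56 and 8.26 in exposed mice, 2.50-fold lower (limma adjusted p = 4.5e-06). Sp4, a zinc finger transcription factor, was 8.10, 8.38, 7.79, 8.39 and 8.50 in sham and 7.23, 6.72, 6.97, 6.74 and 6.97 in exposed mice, 2.47-fold lower (limma adjusted p = 1.7e-05). In both genes the lowest sham mouse lay above the highest exposed mouse.

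The other large falls were in genes of several functions. Gatad2b and Chd4, subunits of the NuRD repressor complex, had changes of -1.23 and -1.10, and Kdm5a, a histone H3 lysine demethylase, of -1.06. Other probe sets of Gatad2b differed by -0.14, 0.07, 0.08 and -0.09, and those of Kdm5a by 0.07, -0.52, 0.24, 0.26 and -0.11. Scaf11, a splicing factor, changed by -1.13, with 0.04, 0.07 and -0.10 in its other probe sets. The zinc finger protein Zc3h15 changed by -1.09, the transcriptional repressor Zbed6 by -1.10 and Zfp626 by -1.05. The rest of the 20 largest falls included Ankrd52 (-1.38), a subunit of protein phosphatase 6, the syntrophin Sntb2 (-1.34), the connexin Gjc1 (-1.16), Veph1 (-1.11), the centriole protein Cep135 (-1.08), the sodium-calcium exchanger Slc8a1 (-1.06) and the ubiquitin ligase adaptor Zer1 (-1.06). Exposed mouse 3 had the lowest value of its group in Kdm5a (7.23) and Scaf11 (7.21), where the other exposed mice had 8.82 to 9.34 and 8.76 to 9.60. Without that mouse, Scaf11 (-0.71), Veph1 (-1.08), Chd4 (-0.93), Zbed6 (-0.87), Cep135 (-0.90) and Kdm5a (-0.69) no longer passed, and Scaf11 and Kdm5a did not pass without sham mouse 2 either. Malat1, a nuclear noncoding RNA, was 13.75 to 14.17 in sham mice and 9.76 in exposed mouse 3 and 12.73 to 13.72 in the other exposed mice. Its difference of -1.38 did not pass (limma adjusted p = 0.084), and most of the range came from exposed mouse 3. Averaged over all 161 genes that fell, the sham mice had 8.78, 8.73, 8.60, 8.81 and 8.86 and the exposed mice 8.32, 7.96, 7.73, 8.17 and 8.06. Of the 161, 57 passed and were lower without exposed mouse 3.

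Heat shock genes as a list had the lowest median at 96 h, -0.38 over 18 genes, and 2 passed, both lower. Hsp90aa1, the inducible cytosolic HSP90, was 13.35, 12.43, 13.43, 13.27 and 13.30 in sham and 12.75, 12.13, 11.30, 12.28 and 11.57 in exposed mice. Sham mouse 2 was below exposed mouse 1, and the other 4 sham mice were above all exposed mice (-1.15 ± 0.21, limma adjusted p = 0.001). Hspa8, the constitutive HSC70 chaperone, was 13.63, 13.23, 13.89, 13.53 and 13.69 in sham and 13.45, 12.94, 12.99, 13.04 and 12.81 in exposed mice, 1.46-fold lower (limma adjusted p = 0.0086). Hspa1b, a stress-induced HSP70, was 9.13 to 10.21 in sham and 7.15 to 8.65 in exposed mice without overlap, but its spread over the series was wide and the difference of -1.38 did not pass (95% confidence interval -2.45 to -0.32, limma adjusted p = 0.19). The co-chaperone Dnaja1 differed by -0.64 (limma adjusted p = 0.12). The median of the list was -0.68 at 48 h and -0.38 at 168 h, and at 96 h it was -0.62 without sham mouse 2.

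Genes of the unfolded protein response had a median of -0.19 over 24 genes, with 2 lower and 0 higher past the threshold. Dnajc3, an endoplasmic reticulum co-chaperone, fell by 0.66 on the log2 scale and Sesn2, a stress-induced regulator of mTORC1, by 0.81, while the chaperone Hspa5 differed by -0.33 (limma adjusted p = 0.08) and Manf by -0.48 (limma adjusted p = 0.064). Dnajc3 and Sesn2 did not pass without exposed mouse 3 (-0.53 and -0.51), nor Sesn2 without sham mouse 2 (-0.74). Sesn2 differed by 0.01 in its other probe set, of like signal (mean 6.97, against 7.07). Dnajc3 differed by -0.04 in a probe set of like signal (11.03, against 11.30) and by -0.23, -0.22 and -0.17 in the rest. Immediate early genes had a median of -0.27 over 27 genes, and 2 were lower. Jund, an AP-1 transcription factor, was 12.56, 12.79, 12.30, 12.44 and 12.42 in sham and 11.68, 11.13, 11.04, 11.60 and 11.18 in exposed mice, without overlap and 2.26-fold lower (limma adjusted p = 1.9e-06). Nr4a2, a nuclear receptor, was 1.79-fold lower (limma adjusted p = 0.027), with sham mouse 2 at 8.79 and the other sham mice at 7.88 to 8.08. Nr4a2 did not pass without sham mouse 2 (-0.67) or without exposed mouse 3 (-0.83). Without sham mouse 2 the median of the immediate early list was -0.07, near that of all genes. Glucocorticoid and fasting response genes had a median of -0.26 over 24 genes, with 0 past the threshold by limma and 5 lower and 1 higher at an unadjusted p under 0.05. Without sham mouse 2 that median was -0.05.

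Lists of genes that handle particles, iron and proteins had at most 2 calls each. Of all genes, 0.522% were higher and 0.885% lower. In the iron list 2.78% were higher, and in the lysosome and proteasome lists 6.67% and 6.9% were lower. Of 36 iron and heme genes only Slc11a1 passed, the metal transporter of phagosomes, which rose by 0.47 ± 0.13 (limma adjusted p = 0.045; 0.44 and not past the threshold without exposed mouse 3), and the ferric reductase Steap3 differed by -0.62 (limma adjusted p = 0.078). Of 31 NRF2 and glutathione genes 0 passed limma, with 5 higher and 2 lower at an unadjusted p under 0.05, and the median change was 0.09. Of 30 lysosome and autophagy genes 26 had a positive difference, against 12552 of all 18193 genes, and 2 passed and were lower. These were Lipa, the lysosomal acid lipase (2.01-fold, limma adjusted p = 0.0013; 0.27 and 0.48 in its other probe sets), and Atp6v1a, a subunit of the vacuolar proton pump (1.72-fold, limma adjusted p = 0.0048; 0.11 in its other probe set, and -0.58 and not past the threshold without exposed mouse 3). Cathepsin D (Ctsd) did not overlap between the groups but did not pass (0.25, limma adjusted p = 0.15). Of 29 proteasome genes Psma7 (-0.30) and Psma4 (-0.34) passed, against a list median of 0.01, and Psma4 did not pass without exposed mouse 3 (-0.28). Of 29 inflammatory cytokine and NF-kB genes 24 had a positive difference (median 0.12), and Csf1, the macrophage growth factor, alone passed. It fell by 0.48 on the log2 scale, with 0.19, -0.18 and 0.08 in its other probe sets, which were dimmer, and did not pass without exposed mouse 3 (-0.45). Of 29 interferon-stimulated genes 23 had a positive difference (median 0.12), and Stat2, the interferon signal transducer, alone passed and fell by 0.73 on the log2 scale, with -0.87 in its other probe set. Of 19 genes of the interleukin 1 family and inflammasome 17 had a positive difference (median 0.20), P2rx7 was higher, and Il18r1, the IL-18 receptor, was lower (-0.51; -0.42 and not past the threshold without sham mouse 2).

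Of 32 chemokine genes Ccl24 alone passed, and the list median was 0.14. The neutrophil chemokines for which the study designed primers were measured at 96 h with differences of 0.30 for Cxcl1 (95% confidence interval -0.28 to 0.89), -0.14 for Cxcl2 (-0.74 to 0.47), -0.22 for Cxcl3 (-0.78 to 0.34) and -0.49 for Cxcl5 (-1.53 to 0.56). The differences at 0 h had been 1.87, 1.48, 2.20 and 3.33 in the same order. The change of Cxcl3 and Cxcl5 at 96 h differed from that at 0 h by the limma interaction, by -2.42 (adjusted p = 0.0018) and -3.82 (adjusted p = 0.022), as did that of the heme oxygenase Hmox1 (-1.44) and the NF-kB inhibitor Tnfaip3 (-0.72). These 4 were the only genes of 18193 to do so (0.022%; 7.04% at an unadjusted p under 0.05). Ccl3 differed by 0.52, Ccl9 by 0.60 and Ccl6 by 0.47 at 96 h, and none of these passed (limma adjusted p = 0.24, 0.22 and 0.075). Cxcl15, the lung-specific chemokine lungkine, differed by -0.25 (limma adjusted p = 0.14), and the pantetheinase Vnn1 by 0.02, a value whose sign changed when arrays were rescaled.

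Most genes that fell at 96 h were also lower at other times, and comparisons at different times shared no mice. Of the 161, 108 were also called lower at 168 h (67.1%), where 295 genes were called lower in all (1.62%). At 24 h it was 107 of the 161 (66.5%; 3.66% of all genes), at 48 h 61 (37.9%; 1.89%), at 6 h 42 (26.1%; 0.407%) and at 0 h 28 (17.4%; 1.11%). None of the 161 was called higher at any of these times. Their median change was -0.27, -0.40, -0.51, -0.32, -0.66 and -0.56 at 0, 6, 24, 48, 96 and 168 h. The 9 genes called lower at all 6 times were Rufy2, Nipbl, Sp4, Smarca5, the RNA methyltransferase Mettl16, the flippase subunit Tmem30a, Phactr2, Wdcp and 6820431F20Rik. Of these Tmem30a did not pass at 96 h without exposed mouse 3 (-0.21) or without sham mouse 2 (-0.28). Smarca5, an ISWI chromatin remodeller, was among the most even, at -0.29, -0.39, -0.33, -0.27, -0.36 and -0.41 from 0 to 168 h, with 10.48 to 10.68 in sham and 10.14 to 10.31 in exposed mice at 96 h. Other probe sets of Smarca5 differed by -0.86, 0.03 and 0.05 at 96 h. Those of Phactr2 differed by 0.07 and 0.17, of Tmem30a by 0.03, -0.34, 0.06 and -0.40, of Mettl16 by 0.21 and of Wdcp by -0.08.

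The genes that rose at 96 h were shared with other times in another way. Of the 95, the 24 h arrays also called 54 higher (56.8%; 20.3% of all genes) and the 48 h arrays 38 (40%; 10.7%). The overlap was 19 genes at 0 h (20%; 2.56%), 9 genes at 6 h (9.47%; 0.759%) and 12 genes at 168 h (12.6%; 0.566%). Their median change of 0.42 at 96 h compared with 0.25 both at 24 and at 48 h and 0.13 at 168 h. Averaged over the 95 genes, sham and exposed mice overlapped at 6 h and at 168 h and not at the other times. At 96 h alone 30 genes were called higher and 20 lower, among them Ptpru, Oscar, Rag1, Kdm5a and Il18r1. That these were called at 96 h and not elsewhere does not show a difference between times. The limma interaction of the change at 96 h with that at 48 h was past the threshold in 0 genes (2349 at an unadjusted p under 0.05, 12.9%), and with that at 168 h in 0 genes (1031 at an unadjusted p under 0.05, 5.67%). With array weights the first count was 1460. Against 6 h, 19 genes differed (0.104%; 8.09% at an unadjusted p under 0.05), of which 5 had passed at 96 h: Slc14a1 (0.84 at 96 h and -0.39 at 6 h), Fcgr4 (0.79 and -0.53), Hspa8 (-0.55 and 0.24), Tspan4 (0.45 and -0.29) and Car11 (0.42 and -0.22).

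**Figure D4:**
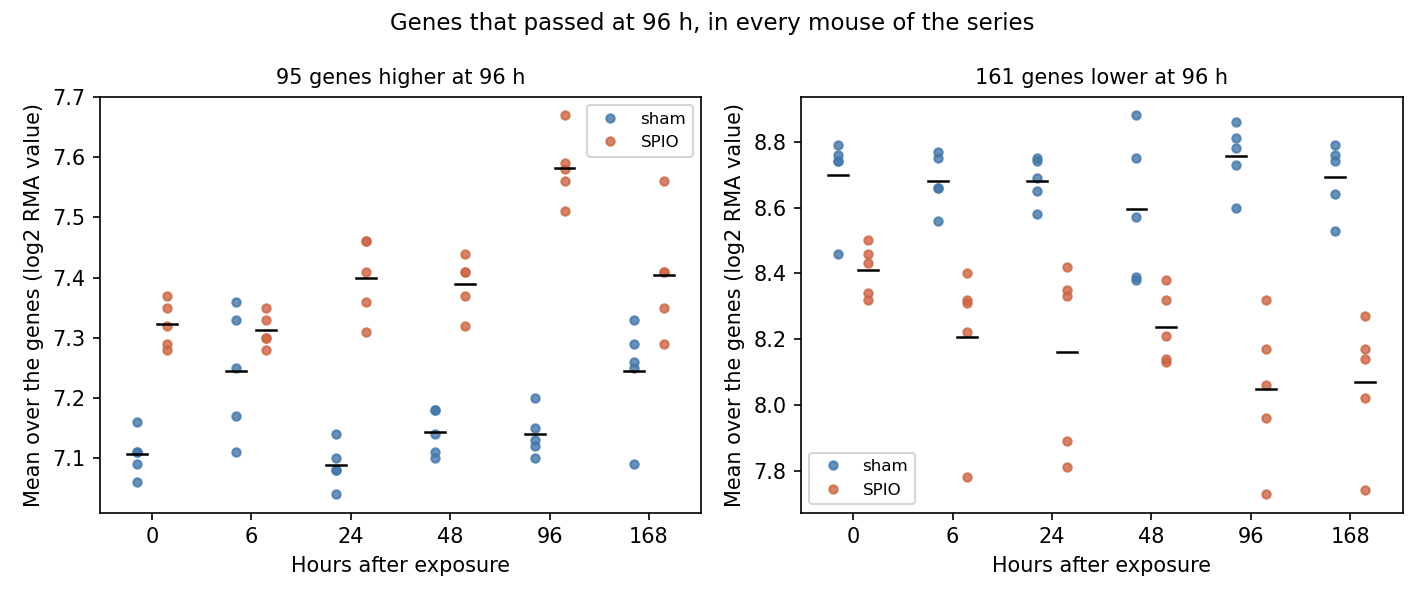
Mean log2 RMA value over the 95 genes that were higher (left) and the 161 that were lower (right) at 96 h, in each of the 60 mice, by hours after exposure; blue points are sham mice, orange points exposed mice and black lines group means. The genes were chosen at 96 h, so the distance there is fixed by the choice; the lower genes also lie apart without overlap at 6, 24 and 168 h.

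The arms were also compared with the same arm at the other 5 times. Exposed mice at 96 h differed from the other exposed mice in 103 genes (0.566%), 79 of them higher (0.434%) and 24 lower (0.132%), and sham mice at 96 h from the other sham mice in 195 (1.07%), 168 of them higher (0.923%) and 27 lower (0.148%). Both counts rested on single mice. The exposed count was 6 without exposed mouse 3 (2 higher, 4 lower), 7 without exposed mouse 5, 16 without exposed mouse 2 and 37 without exposed mouse 1, and the sham count was 0 without sham mouse 1 and 0 without sham mouse 4. The 95 and the 161 genes were chosen at 96 h with these same mice, so counts among them are partly fixed by the choice. With all mice in the fit, 14 of the 95 genes that rose at 96 h were higher in the 96 h exposed mice than in other exposed mice. At most 2 of these can be called so without exposed mouse 3. Among the 14 were Slc14a1 (0.66), H2-DMb2 (0.75), Mzb1 (0.64), Rnase6 (0.55), Ly86 (0.53), Itgb7 (0.42) and Rag1 (0.31). For these 7 the 96 h sham mice lay within 0.30 of the other sham mice. Of the 161 that fell, 1 was lower than in other exposed mice, Hspa8 (-0.52). In sham mice 2 of the 95 genes differed (Car11, -0.41, and Ccar2, 0.22) and 1 of the 161 (Pgm5, 0.34).

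In the genes that fell, the change was mostly smaller in the other probe sets of the gene than in the probe set used. Of the 161, 127 had other probe sets on the array, 303 in all. The median change of these was -0.05, while that of the probe set used for the same 127 genes was -0.66. Genes were chosen by the change of the probe set used, so part of this gap is fixed by the choice. Of the 303, 190 had a negative difference. At an unadjusted p under 0.05, 84 of them were lower and 16 higher. When each probe set was tested singly, 54 of the 303 were lower at an adjusted p under 0.05, in 42 genes, and in 26 genes every other probe set had the opposite sign. Lipa is an example at like signal: the probe set used (mean 9.96) differed by -1.01, and 2 others (9.86 and 9.46) by 0.27 and 0.48, so the fall of Lipa depended on the probe set. Rufy2 was -1.59 in the probe set used and -0.04, -0.15 and -0.20 in the others, which were dimmer (4.49, 4.15 and 2.92, against 5.45). In Nipbl a probe set of the same mean (9.17) differed by -0.11, and in Sp4 the other probe set differed by -0.03. Hspa8 had a negative difference in all 4 of its probe sets (-0.55, -0.69, -0.59 and -1.23), and Hsp90aa1 had -0.69 and -0.25 in the 2 others of like signal. Zc3h15 was lower in 3 of 4 (-1.09, -0.88 and -1.08) with -0.03 in the fourth. Chd4 was lower in 2 probe sets and differed by 0.22 in the third. For the genes that rose, 44 had 86 other probe sets with a median of 0.12, against 0.36 in the probe set used. What sets these probe sets apart was not tested.

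Over all 45037 probe sets tested singly, 2232 passed (429 higher, 1803 lower). The probe sets that stand for a gene in the counts above were lower in 238 cases (1.31%), whereas 1212 of the 16752 other probe sets of those genes were lower (7.23%) and 328 of the 9160 without a gene symbol (3.58%). The other probe sets thus held 67.2% of all lower calls, in 999 genes. Of the 1212, 644 were also lower at 168 h and 306 at 48 h.

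**Figure D5:**
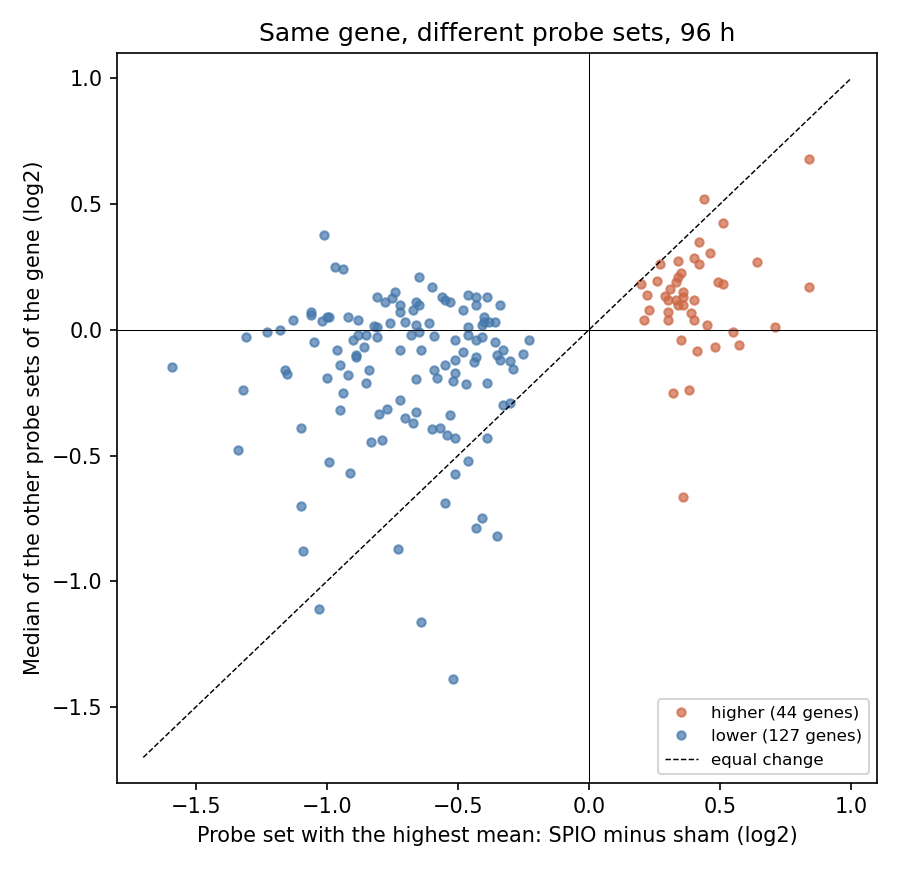
Change at 96 h (SPIO minus sham, log2) of the probe set that stood for a gene and median change of the gene's other probe sets, for the 44 higher (orange) and 127 lower genes (blue) with more than 1 probe set; the dashed line marks equal change. The horizontal axis is the probe set that stood for the gene and the vertical axis the median of the others. Most blue points lie above the dashed line and near 0 on the vertical axis. The other probe sets of the lower genes had a median change of -0.05. Genes were chosen by the probe set on the horizontal axis, so part of the gap is fixed by the choice.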

How the data were processed

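The authors hybridized biotin-labelled cRNA, made with an oligo-dT primer, to Affymetrix mouse genome arrays and deposited log2 values made by RMA, which corrects the background, normalizes by quantiles and summarises probe sets, with no version stated. RMA sets the arrays to 1 distribution, which removes much of any shift shared by most probe sets. Probe sets read the 3' part of transcripts, and a gene's probe sets can read different parts. Precision is limited by how many arrays there were.

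Of 45101 probe sets, 64 controls were left out. Those with 1 gene symbol in the platform annotation (34945) gave 18193 genes; 932 had several and 9160 none. All value columns matched 1 sample. Exposed and sham mice were compared by limma 3.58.1 in R 4.3.3 (lmFit, contrasts.fit, eBayes) in 1 fit over 60 arrays and 12 groups, which left 48 residual degrees of freedom. P-values were adjusted by Benjamini-Hochberg over every gene, with a threshold of 0.05 and no minimum fold. Changes at different times were compared as interactions. Single genes also had a two-sided exact permutation test. Limma p-values and SEs set a difference against the spread between mice within groups. That spread was pooled over all 12 groups and adjusted across genes by eBayes, so it is not that of the 96 h mice alone. Lists were described by counts and medians, with no set test.

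The comparison, the 52 lists and the gene rule were chosen with earlier results of these data known. The rule named the 20 largest rises and 20 largest falls among genes that passed (predicted transcripts passed over), in each list up to 4 members by smallest p, genes that passed at 96 h and at 4 or more other times, genes whose change differed from both 48 h and 168 h (there were 0), and the primer genes of the study, of which 1 had no probe set with a single symbol. Genes named with counts of 5 or fewer outside this rule, the probe set examples and Tspan4, Car11 and Pgm5 were chosen after their values were seen. On simulated data limma was tested before use. Python 3.11.15 with matplotlib 3.10.9 drew the figures.

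Each count and named gene was recomputed with the probe sets tested singly or averaged per gene, without dim genes (a log2 value of 6 reached in fewer than 5 arrays), with arrays normalized by quantiles once more or centred on their medians, from the 96 h arrays by themselves, without 2 odd arrays of other times, with robust and trended variances, with weighted arrays, with the replicate number as a block, with minimum folds of 1.5 and 2, by the methods' test (ANOVA without equal variances, followed by Tukey's HSD) and without each 96 h mouse.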

Additional observations from a re-analysis of the deposited data

Results flagged for a closer look

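In groups of 5 mice, a mouse was singled out where its gap to the nearest other mouse, divided by the range of the group, was over 0.71 (Dixon's critical value). Chance alone gives about 1 in 20 such groups, and 14 of 320 groups tested were past the value.

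Exposed mouse 3 was the lowest of its group in Gjc1 (7.93, ratio 0.74), Kdm5a (7.23, 0.75), Sesn2 (5.33, 0.79), Atp6v1a (9.36, 0.72), Malat1 (9.76, 0.75) and the proteasome subunit Psmd7 (8.71, 0.74). The same mouse was the highest in Clca1, a gene of mucous airway cells (8.17, ratio 0.92), where all other mice of both arms had 2.80 to 3.43. Sham mouse 2 was the lowest of its group in Hsp90aa1 (12.43, ratio 0.84) and the highest in the immediate early genes Nr4a2 (8.79, 0.78) and Btg2 (11.40, 0.86) and in the mean of the neutrophil markers (8.51, 0.73). In the list means, exposed mouse 2 was lowest in alveolar type 1 markers (12.06, ratio 0.82), sham mouse 3 highest in metallothioneins and zinc transporters (8.28, 0.74) and sham mouse 1 lowest in circadian clock genes (8.12, 0.79).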

How the results depend on the processing

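The median changes of the lists moved by less than the spread between mice in 981 of 988 values tried. The 256 genes that passed became 2232 with all probe sets tested singly, 820 with probe sets averaged per gene, 96 when the 96 h arrays were fitted alone, 546 with array weights, 112 at a 1.5-fold minimum and 26 at a 2-fold minimum, and 81 to 337 when 1 mouse was left out (81 without exposed mouse 3, 144 without exposed mouse 2, and 168, 146 and 156 without sham mice 1, 4 and 5). In all 10 of those fits 72 genes passed, 54 lower and 18 higher. The cause was not tested. The methods' test gave 313 genes (137 higher, 176 lower), 245 of them among the 256.

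The count of genes whose change at 96 h differed from that at 48 h became 1460 with array weights, and the count against 168 h lay between 0 and 1 with 1 mouse left out. The count of sham mice at 96 h against other sham mice (195) was 46 with all probe sets, 84 with the mean of probe sets, 469 with the filter on dim genes, 65 after a second quantile normalization, 30 with centred arrays, 1 when the sham arrays were fitted alone, 444 without the 2 odd arrays, 1826 with array weights, 21 and 3 at the 1.5-fold and 2-fold minimums, and 0 to 312 with 1 mouse left out. The count of exposed mice against other exposed mice (103) was 65 with all probe sets, 65 with centred arrays, 202 when fitted alone, 39 and 7 at the fold minimums, and 6 to 173 with 1 mouse left out. The causes were not tested.

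Vnn1 turned to -0.03 after a second quantile normalization, to -0.04 with centred arrays, and ranged from -0.05 to 0.09 with 1 mouse left out. The replicate numbers shared by the arms did not pair the mice: same-numbered mice correlated at -0.30, 0.47, -0.28, -0.41 and 0.15 in their deviations. With the replicate block 263 genes passed (95 higher, 168 lower), 245 of them among the 256.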

Other observations

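Clock, matrix and respiratory chain genes had no member past the threshold at 96 h. Of all genes 1.41% passed, so 0 in lists of this size is near the share of all genes. At an unadjusted p under 0.05, 10.2% of all genes were higher and 4.12% lower. Of 20 circadian clock genes 0 passed limma, with 4 higher and 3 lower at an unadjusted p under 0.05. Of 30 collagen and matrix genes 0 passed (median -0.03), with 0 higher and 1 lower at an unadjusted p under 0.05, and of 18 matrix metalloproteinase genes 0 passed, with 1 higher and 1 lower. Of 31 respiratory chain genes 26 had a positive difference, against 12552 of all 18193 (median 0.06, equal to that of all genes), and 0 passed, with 3 higher and 0 lower at an unadjusted p under 0.05. Retnla, an alternatively activated macrophage and airway gene, was 9.19 to 10.94 in sham and 9.98 to 12.20 in exposed mice. The groups overlapped, and the difference of 1.03 did not pass (limma adjusted p = 0.15).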
